A study of Mus musculus with 12 samples.

Results

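The genes described are 36 genes of fatty acid oxidation, PPAR regulation and lipid droplet turnover, read by their symbols from the 56748 genes of the count matrix. They comprise 3 genes of the carnitine shuttle, 12 of mitochondrial beta-oxidation, 3 of the electron transfer flavoprotein, 4 of peroxisomal oxidation, 5 PPAR regulators, 4 long-chain acyl-CoA synthetases and 5 genes of the lipid droplet and of lipolysis. RNA came from bone marrow-derived macrophages (BMDM) of C57BL/6J mice. The methods describe the mice as female and bought at 10 to 12 weeks of age, and the age of the marrow donors at harvest was not given in the sources used here. The cells were differentiated with 20 ng/mL M-CSF and polarized to an M2-like state with 10 ng/mL IL-4 for 48 hours, which all 4 conditions shared. They were then cultured for 72 hours in 1 of 4 ways, with 3 libraries each. The untreated control received plain BMDM medium. The eGFP supernatant condition received supernatant of YUMM5.2 eGFP cells, a melanoma line carrying a doxycycline-inducible eGFP vector. The Ifnb1eGFP supernatant condition received supernatant of YUMM5.2 Ifnb1eGFP cells, in which doxycycline induces IFNβ with eGFP, diluted to 1500 pg/mL IFNβ. Both lines had been treated with 1 µg/mL doxycycline. The methods give the time of that treatment, 72 hours, for the Ifnb1eGFP cells only. Both supernatants were diluted at 1 ratio, so the supernatant conditions share the donor line and doxycycline, which the other 2 conditions lack. The rIFNβ condition received recombinant IFNβ, taken here to be at 1500 pg/mL. The article's methods give that figure for the supernatant only and name no single concentration for the recombinant protein, so equal doses are not certain. Neither labels nor methods state whether libraries of a condition came from separate mice or cultures, so the p-values measure the spread between these libraries, which may be technical.

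Long-chain fatty acids are first coupled to coenzyme A by acyl-CoA synthetases. Acyl-CoA then enters mitochondria through the carnitine shuttle and is shortened by cycles of dehydrogenation, hydration, a second dehydrogenation and thiolysis, whereas peroxisomes shorten very long and branched chains. Fatty acids that are not oxidized are stored as triacylglycerol in lipid droplets, which perilipins coat and lipases empty. The nuclear receptors PPARα, PPARδ and PPARγ bind fatty acids and, with the PGC-1 coactivators, regulate many of these genes. In macrophages, IL-4 is known to raise fatty acid oxidation and PPARγ activity.

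Library totals ran from 31526034 to 45348457 expected counts. Of 7 macrophage markers, 4 were higher and 2 lower in both IFNβ comparisons. In CPM (counts scaled to a common library size), Adgre1 stood at 1484 to 1836 and Csf1r at 1023 to 1189 over the 12 libraries. Fcgr1 stood at 48.8 to 112.4 without IFNβ and 1111 to 1294 with it, Itgam at 1424 to 1627 and 317 to 426, and Lyz2 at 8807 to 12830 and 3441 to 4322. Of 4 markers of IL-4-treated macrophages, 1 was higher and 0 lower in both IFNβ comparisons. Chil3 was the higher one, at 63.2 to 81.5 CPM without IFNβ and 106.1 to 129.4 with it. Over the 12 libraries Mrc1 stood at 609 to 839 CPM, Retnla at 45.4 to 71.3 and Arg1 at only 0.208 to 0.877. All 6 adipocyte markers, among them Adipoq, Plin1 and Cidec, had at most 3 counts in every library. Fabp4 and Lipe are also abundant in fat cells, and their cell source was not tested. The melanocyte markers Tyr, Tyrp1, Dct and Sox10 had at most 3 counts in every library as well. Of 5 fibroblast markers, 2 were higher and 1 lower in both IFNβ comparisons, Dcn standing at 4.74 to 12.5 CPM without IFNβ and 18.8 to 39.7 with it, Pdgfra at 0.877 to 3.24 and 3.53 to 7.41, and Col1a1 at 10.6 to 22.6 and 6.67 to 9.51. The lists of neutrophil, dendritic cell, and T and B cell markers had 1 tested gene each, which was lower, lower and higher, respectively, in both comparisons. The part of these markers in the results was not tested. Summed levels of the 9 interferon-stimulated genes used to check the labels were 11020 to 12360 CPM with Ifnb1eGFP supernatant and 11710 to 12280 CPM with rIFNβ, against 99.8 to 165 CPM in the untreated control. With eGFP supernatant they were 109.8 to 872 CPM, the highest in library 2. Libraries 1 and 2 of the Ifnb1eGFP supernatant condition deviated in opposite directions: over 14962 genes the deviation of library 1 from the other two fell with the GC content of the transcripts (Spearman's rho -0.58 across genes), and that of library 2 rose with it (rho 0.57). Among 34 members library 1 was the lowest of its condition for 14 and the highest for 15, and the members it undershot most were GC-rich: Ppargc1b, Ppard, Acads, Acaa1a, Etfb, Lipe and Pnpla2 (55.2 to 60.1% GC). Values of those genes without library 1 or 2, or with the trend of GC content and length removed, are given beside them. That trend was fitted to each library's deviation from the mean of all 12, so a trend between conditions is removed with it. In bulk RNA, fewer cells of a type and less RNA per cell cannot be told apart.

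Of the 36 members, 34 passed the filter on low counts that kept 15033 genes; Ppara and Ppargc1a did not. With Ifnb1eGFP supernatant against eGFP supernatant, 20 of the 34 members were lower and 9 were higher, taking an adjusted p of 0.05 as the limit (edgeR's quasi-likelihood test, Benjamini-Hochberg adjustment over the 15033 genes). Over all genes tested, 30.1% were higher and 25% lower in this comparison. The median log2 fold change was -0.29 for the members and 0.03 for all genes. With rIFNβ against untreated control, 17 members were lower and 7 were higher, where 24.6% and 30.7% of all genes were, and the medians were -0.28 for members and 0.04 for all genes. The share of members that were higher (26.5% and 20.6%) was below that of all genes in both comparisons, and the share that were lower (58.8% and 50%) was above it. Without eGFP supernatant library 2 and Ifnb1eGFP supernatant library 1 together, 6 members were higher and 19 lower in the supernatant comparison, and without Ifnb1eGFP supernatant library 2 alone, 8 and 19.

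The same 7 members were higher in both IFNβ comparisons, namely Cpt1a, Slc25a20, Eci1, Ehhadh, Pparg, Plin2 and Lipe. Another 17 were lower in both: Cpt2, Acadl, Acadm, Acads, Hadh, Hadha, Hadhb, Echs1, Etfa, Etfb, Etfdh, Acox3, Hsd17b4, Acsl3, Acsl4, Mgll and Fabp4. Decr1, Acaa1a, Ppard, Ppargc1b and Acsl5 passed the test only with supernatant, and 0 members passed it only with rIFNβ. Acadvl, Eci2, Acaa2, Acsl1 and Pnpla2 passed it in neither comparison, and 0 members were called in opposite directions. The shares of all genes with these patterns are not given here, so these counts do not set the members apart from other genes. The 3 libraries with IFNβ did not overlap the 3 without it for 28 of 34 members with supernatant and 27 of 34 with recombinant protein, where 59% and 66.1% of all tested genes did not overlap. Past a log2 fold change of -2 at an adjusted p of at most 0.01, thresholds that the study used, lay Mgll and Acsl3 in both comparisons, where 2.62% and 2.78% of all genes were that much lower. No member was higher by as much, against 2.77% and 2.99% of all genes.

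**Figure D1:**
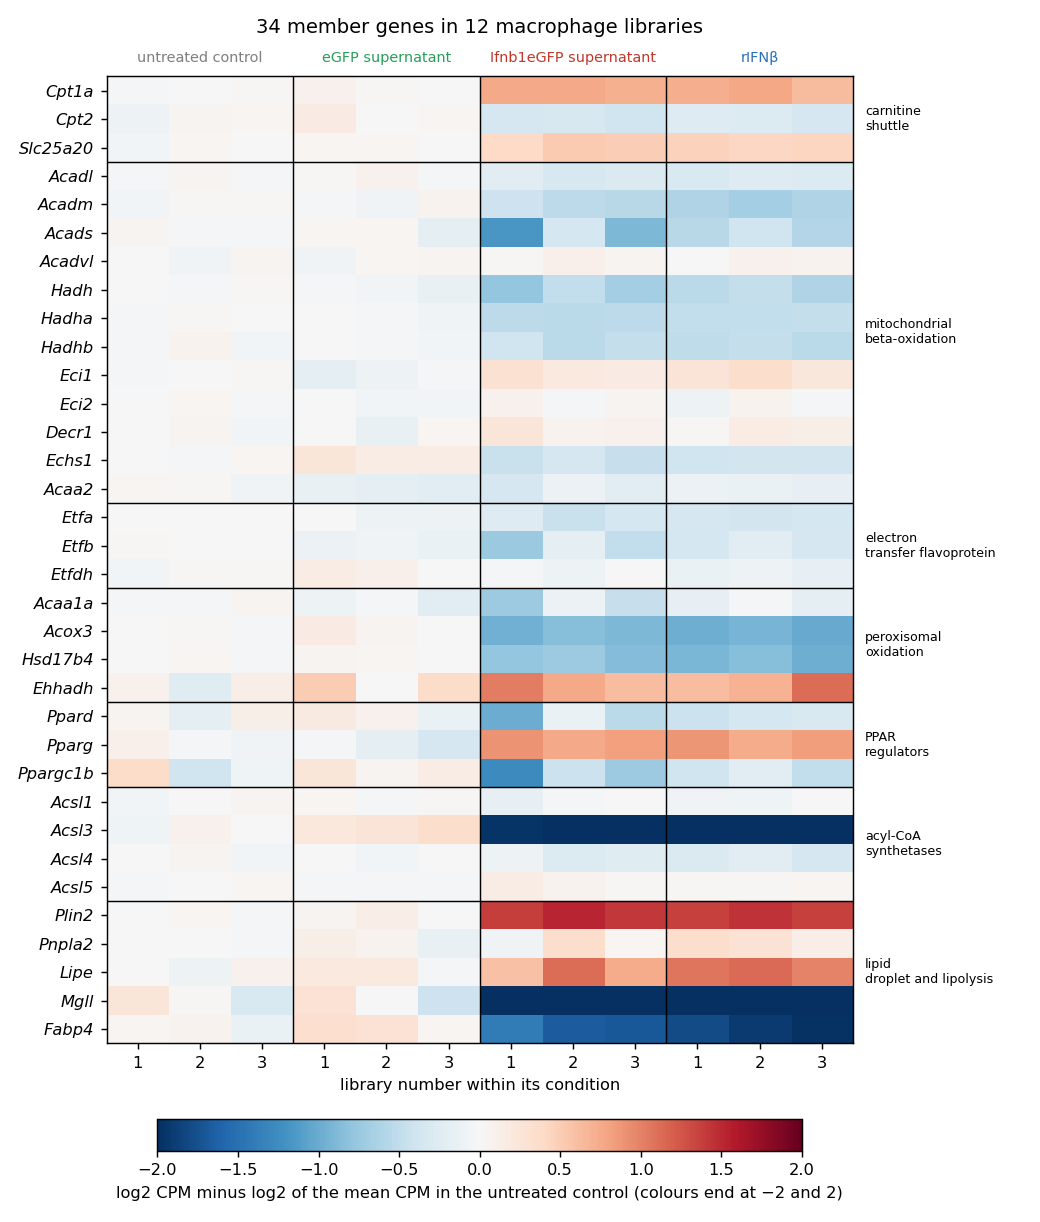
Level of the 34 tested members (rows, by role) in each of the 12 libraries (columns, 3 per condition), as log2 CPM minus the log2 of the mean CPM in the untreated control. Rows of Plin2, Cpt1a and Pparg are red in all 6 libraries with IFNβ, rows of Mgll, Acsl3 and Fabp4 are blue in all 6, and library 1 of the Ifnb1eGFP supernatant condition is bluer than its neighbours for Acads, Etfb, Acaa1a, Ppard and Ppargc1b.

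The carnitine shuttle moved in both directions. Cpt1a, which encodes the outer-membrane transferase that forms acylcarnitine and limits the rate of entry, lies on chromosome 19 (GRCm39, 3371853 to 3437996, plus strand). It stood at 129, 129.6 and 133 CPM in libraries 1 to 3 of the untreated control, 138, 133 and 129.9 with eGFP supernatant, 219.7, 219.8 and 213 with Ifnb1eGFP supernatant, and 215, 223 and 202 with rIFNβ. All 6 libraries with IFNβ were above all 6 without it, by a log2 fold change of 0.70 ± 0.04 (SE, 3 libraries per condition, adjusted p = 1.33e-07) with supernatant and 0.71 ± 0.04 (adjusted p = 1.09e-07) with rIFNβ, or 1.63-fold in both. Slc25a20, the carrier that exchanges acylcarnitine for carnitine across the inner membrane, stood at 31.0, 33.2 and 32.4 CPM in the untreated control, 33.1, 33.0 and 32.0 with eGFP supernatant, 42.5, 46.4 and 45.2 with Ifnb1eGFP supernatant, and 44.2, 42.8 and 43.3 with rIFNβ. It rose by a log2 fold change of 0.45 ± 0.04 (SE, adjusted p = 5.74e-06) and 0.43 ± 0.05 (adjusted p = 8.11e-06), again without overlap.

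Cpt2, the inner-membrane transferase that returns the acyl group to coenzyme A, went the other way. It stood at 19.4, 21.5 and 21.3 CPM in the untreated control, 23.2, 20.7 and 21.4 with eGFP supernatant, 16.4, 16.6 and 15.7 with Ifnb1eGFP supernatant, and 17.3, 17.2 and 16.5 with rIFNβ. All 6 libraries with IFNβ were lower, with log2 fold changes of -0.42 ± 0.06 (SE, adjusted p = 0.000103) and -0.29 ± 0.06 (adjusted p = 0.00164). The exons of Cpt2 overlap those of Czib on the opposite strand over 233 bases. Czib was higher with Ifnb1eGFP supernatant by a log2 fold change of 0.51, and the strand setting of the counting was not given in the sources used here.

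Within mitochondrial beta-oxidation, 7 of 12 genes were lower in both IFNβ comparisons, and Eci1 was higher in both. Of the 4 acyl-CoA dehydrogenases, which carry out the first step on chains of different length, 3 fell. Acads, the short-chain enzyme, showed the largest change of the group with supernatant, though not with rIFNβ. It stood at 47.6, 45.0 and 44.2 CPM in the untreated control, 47.1, 47.1 and 40.1 with eGFP supernatant, 20.3, 35.9 and 24.4 with Ifnb1eGFP supernatant, and 31.1, 34.6 and 30.4 with rIFNβ. The groups did not overlap, and the log2 fold change was -0.74 ± 0.16 (SE, adjusted p = 0.00245) with supernatant and -0.51 ± 0.16 (adjusted p = 0.0194) with rIFNβ. The spread was widest in the Ifnb1eGFP supernatant condition (26.9 ± 8.11 CPM, SD, n = 3), where library 1 was lowest and library 2 highest. The value with supernatant was -0.612 without library 1, -0.999 without library 2 and -0.493 with the trend of GC content and length removed. The call with rIFNβ was lost without untreated control library 1 (adjusted p = 0.0551), rIFNβ library 1 (0.0585) or rIFNβ library 3 (0.0635).

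Acadm, the medium-chain dehydrogenase, fell, with log2 fold changes of -0.49 ± 0.05 (SE, adjusted p = 1.24e-05) with supernatant and -0.62 ± 0.05 (adjusted p = 1.51e-06) with rIFNβ. Acadl, the long-chain dehydrogenase, fell, with log2 fold changes of -0.30 ± 0.05 (adjusted p = 0.000233) and -0.28 ± 0.05 (adjusted p = 0.000409). Acadvl, the very-long-chain dehydrogenase bound to the inner membrane, had log2 fold changes of 0.05 ± 0.05 in both (adjusted p = 0.451 and 0.442). Per kilobase of transcript, the 4 dehydrogenases together stood at 116 ± 0.735 CPM per kilobase in the untreated control and 116 ± 1.64 with eGFP supernatant, and at 92.2 ± 3.74 with Ifnb1eGFP supernatant and 92.7 ± 1.68 with rIFNβ (SD, n = 3). Acadvl made up 22.8 ± 1.03% and 23.0 ± 1.10% of that sum without IFNβ and 30.1 ± 0.706% and 29.6 ± 0.643% with it. The groups did not overlap for this share.

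Of the later steps, the hydratase and the hydroxyacyl-CoA dehydrogenases were lower. Echs1, the short-chain enoyl-CoA hydratase of the second step, stood at 42.0, 40.6 and 43.2 CPM in the untreated control, 49.5, 46.4 and 46.5 with eGFP supernatant, 30.8, 33.2 and 30.6 with Ifnb1eGFP supernatant, and 31.9, 32.6 and 32.4 with rIFNβ. It fell, with log2 fold changes of -0.59 ± 0.05 (SE, adjusted p = 8.67e-07) and -0.38 ± 0.05 (adjusted p = 3.5e-05). The 3 libraries with eGFP supernatant were above the 3 untreated ones, while the libraries with IFNβ from both sources lay between 30.6 and 33.2 CPM.

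Hadh, the short-chain hydroxyacyl-CoA dehydrogenase of the third step, stood at 61.8, 60.6 and 63.0 CPM in the untreated control, 60.9, 59.8 and 55.5 with eGFP supernatant, 36, 43.9 and 38.6 with Ifnb1eGFP supernatant, and 42.5, 44.5 and 40.8 with rIFNβ. All 6 libraries with IFNβ were lower, with log2 fold changes of -0.57 ± 0.07 (SE, adjusted p = 2.57e-05) and -0.54 ± 0.07 (adjusted p = 4.13e-05).

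Hadha and Hadhb encode the α and β subunits of the mitochondrial trifunctional protein, which carries out the last 3 steps on long chains. Hadha stood at 152 to 158 CPM in the untreated control, 149 to 157 with eGFP supernatant, 107 to 109 with Ifnb1eGFP supernatant and 110.3 to 112 with rIFNβ. Hadhb stood at 95.9 to 105, 95.7 to 100.4, 68.8 to 75.8 and 68.6 to 71.4 CPM in the same order. Both subunits were lower in all 6 libraries with IFNβ, Hadha by log2 fold changes of -0.50 ± 0.03 (SE, adjusted p = 2.86e-07) and -0.49 ± 0.03 (adjusted p = 3.06e-07), and Hadhb by -0.44 ± 0.05 (adjusted p = 1.1e-05) and -0.51 ± 0.05 (adjusted p = 3.49e-06). The pair lies head to head on chromosome 5, and in GRCm39 their annotated exons overlap on opposite strands over 932 bases. In the RefSeq promoter windows (GRCm38.p6) their starts are 272 bases apart. Both genes share the stretch between them, and the part of it around the letters marked below is shown. This part is read on the strand of Hadhb, chr5:30155088-30155176, from 165 to 77 bases before the start of Hadhb. The capitals mark 9 letters that fit TTCNNNGAA, the pattern of a gamma-activated site.

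Hadhb: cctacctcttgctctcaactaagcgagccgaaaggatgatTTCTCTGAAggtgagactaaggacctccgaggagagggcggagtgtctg

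Eci1 and Eci2 encode isomerases that prepare unsaturated chains for the cycle. Eci1 rose by a log2 fold change of 0.33 ± 0.06 (SE, adjusted p = 0.00113) and 0.28 ± 0.06 (adjusted p = 0.00355). Eci2 had 0.08 ± 0.05 (adjusted p = 0.222) and -0.02 ± 0.05 (adjusted p = 0.821). Decr1, the dienoyl-CoA reductase of the same branch, had 0.17 ± 0.07 with supernatant at an adjusted p of 0.0498 and 0.10 ± 0.07 with rIFNβ (adjusted p = 0.234). The call of Decr1 was lost under 13 of 15 alternatives, among them leaving out Ifnb1eGFP supernatant library 1 (log2 fold change 0.075, adjusted p = 0.388), library 3 of that condition (adjusted p = 0.0569) or eGFP supernatant libraries 1 (0.0718) and 2 (0.198). With the trend of GC content and length removed its value turned to -0.086. Acaa2, the thiolase of the last step, had -0.04 ± 0.06 (adjusted p = 0.586) and -0.13 ± 0.06 (adjusted p = 0.0697).

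The electron transfer flavoprotein passes electrons from the acyl-CoA dehydrogenases to ubiquinone, and its 3 genes were lower in both comparisons. Etfa, the α subunit, stood at 55.4, 55.0 and 55.2 CPM in the untreated control, 55.0, 51.4 and 51.5 with eGFP supernatant, 46.2, 40.8 and 43.1 with Ifnb1eGFP supernatant, and 43.5, 42.6 and 43.3 with rIFNβ. It fell, with log2 fold changes of -0.28 ± 0.05 (SE, adjusted p = 0.000474) and -0.35 ± 0.05 (adjusted p = 7.51e-05). Etfb, the β subunit, stood at 50.4, 49.3 and 49.4 CPM in the untreated control, 45.8, 47.5 and 45.4 with eGFP supernatant, 29.8, 43.5 and 35.3 with Ifnb1eGFP supernatant, and 38.8, 42.8 and 39.4 with rIFNβ. It fell, with log2 fold changes of -0.35 ± 0.10 (adjusted p = 0.0135) and -0.30 ± 0.10 (adjusted p = 0.0289), without overlap.

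Etfb was again lowest in library 1 of the Ifnb1eGFP supernatant condition, and its supernatant value was -0.185 with the trend of GC content and length removed. Its call with rIFNβ was lost when any 1 library of that comparison but rIFNβ library 2 was left out (adjusted p = 0.0598 to 0.0909). Etfdh, the oxidoreductase that hands the electrons on, stood at 34.6, 36.6 and 36.3 CPM in the untreated control, 39.7, 38.5 and 36.2 with eGFP supernatant, 34.9, 33.4 and 35.7 with Ifnb1eGFP supernatant, and 32.8, 33.3 and 32.0 with rIFNβ. Its change was the smallest of the genes called in both comparisons, -0.14 ± 0.05 (adjusted p = 0.0301) and -0.13 ± 0.05 (adjusted p = 0.0369). That call was lost under 5 and 7 of 15 alternatives, among them the loss of eGFP supernatant library 1 (adjusted p = 0.122), eGFP supernatant library 2 (0.0846) or Ifnb1eGFP supernatant library 2 (0.0868), and of each library of the rIFNβ comparison but untreated control library 1 (0.0569 to 0.121).

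**Figure D2:**
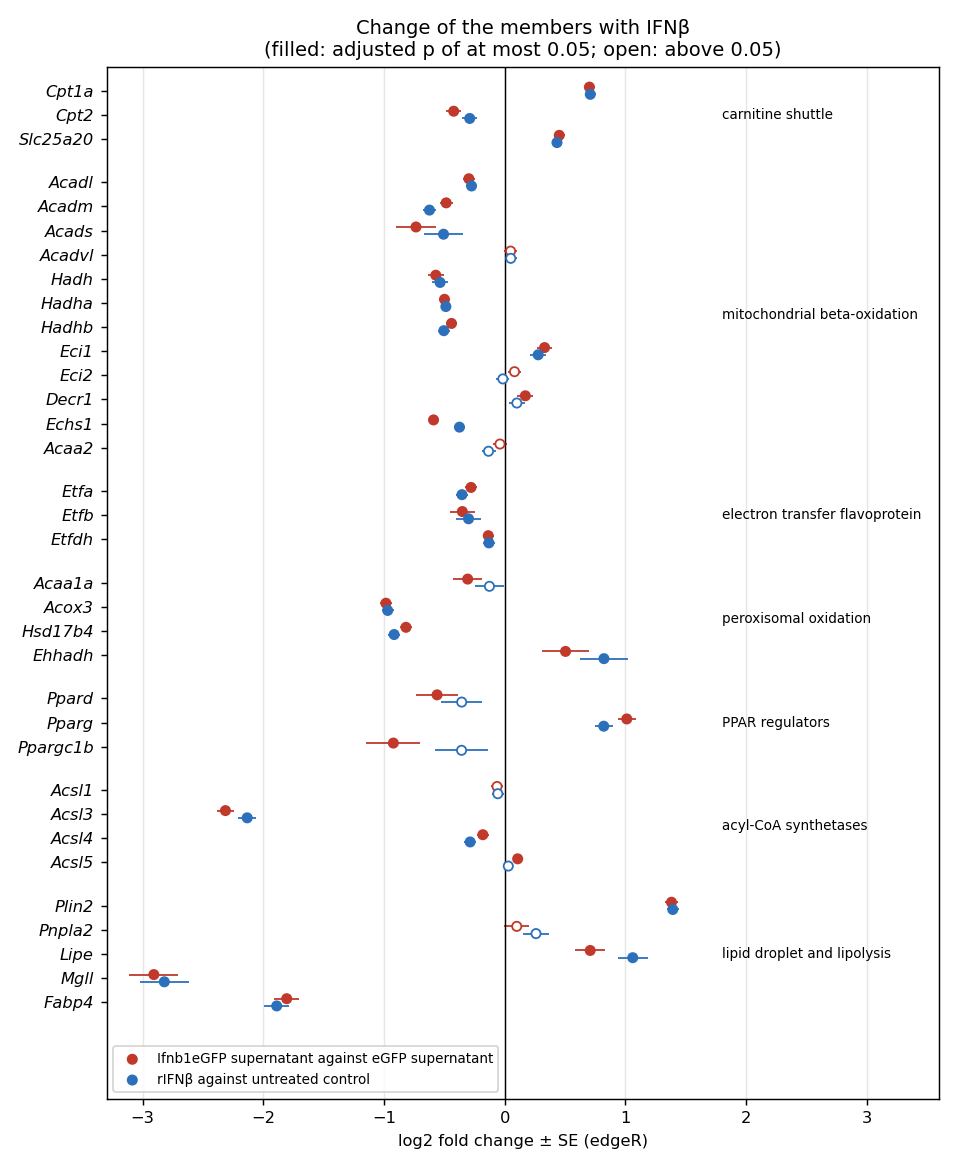
Log2 fold change of each tested member (x axis, ± SE, edgeR) with Ifnb1eGFP supernatant against eGFP supernatant (red) and rIFNβ against untreated control (blue), grouped by role. Filled points passed the test, and the gap between the points of the 2 comparisons is widest for Ppargc1b (-0.92 and -0.36) and next for Lipe (0.71 and 1.06).

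Peroxisomal oxidation held the largest changes of the oxidation genes. Acox3, the oxidase of branched-chain acyl-CoA, lies on chromosome 5 (GRCm39, 35740326 to 35772717, plus strand). It stood at 169, 173 and 167 CPM in the untreated control, 190.1, 176 and 171 with eGFP supernatant, 86.9, 93.7 and 90.7 with Ifnb1eGFP supernatant, and 86.1, 89.5 and 84.1 with rIFNβ. All 6 libraries with IFNβ were lower, with log2 fold changes of -0.99 ± 0.05 (SE, adjusted p = 2.02e-08) and -0.97 ± 0.05 (adjusted p = 1.98e-08), or 1.98-fold and 1.96-fold. Hsd17b4, the multifunctional protein that hydrates and dehydrogenates very long and branched chains, stood at 122, 127 and 121 CPM in the untreated control, 128, 126 and 122 with eGFP supernatant, 72.1, 74.2 and 67.6 with Ifnb1eGFP supernatant, and 65.2, 68.2 and 62.5 with rIFNβ. It fell, with log2 fold changes of -0.82 ± 0.05 (adjusted p = 7.14e-08) and -0.92 ± 0.05 (adjusted p = 2.62e-08), also without overlap.

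Ehhadh, the other peroxisomal multifunctional protein and a classical PPARα target in liver, was low in these cells and moved in the opposite direction to Hsd17b4. It stood at 1.21, 0.966 and 1.25 CPM in the untreated control, 1.62, 1.15 and 1.48 with eGFP supernatant, 2.33, 1.94 and 1.76 with Ifnb1eGFP supernatant, and 1.75, 1.84 and 2.48 with rIFNβ, or 33 to 98 counts per library. The rise was 0.50 ± 0.19 (SE, adjusted p = 0.0451) and 0.82 ± 0.20 (adjusted p = 0.00431). Only the call with supernatant depended on the settings: it was lost under 10 of 15, among them without eGFP supernatant library 2 (adjusted p = 0.164), eGFP supernatant library 3 (0.0721), Ifnb1eGFP supernatant library 1 (0.199) or Ifnb1eGFP supernatant library 2 (0.0628).

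Acaa1a, the peroxisomal thiolase, stood at 81.1, 80.0 and 85.0 CPM in the untreated control, 76.5, 80.9 and 70.3 with eGFP supernatant, 49.4, 75.3 and 59.3 with Ifnb1eGFP supernatant, and 72.9, 80.4 and 72.0 with rIFNβ. The groups overlapped in both comparisons. Its log2 fold change was -0.31 ± 0.12 with supernatant at an adjusted p of 0.0486 and -0.13 ± 0.12 with rIFNβ (adjusted p = 0.399). The call was lost without eGFP supernatant library 1 (adjusted p = 0.102), eGFP supernatant library 2 (0.144) or Ifnb1eGFP supernatant library 3 (0.126). Without Ifnb1eGFP supernatant library 2 the value was -0.48. With the trend of GC content and length removed it was -0.075 (adjusted p = 0.0367). Its exons overlap those of Myd88, which rose, on the opposite strand over 628 bases.

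Of the PPAR regulators, Pparg rose. It encodes the receptor that drives adipocyte differentiation and is prominent in IL-4-treated macrophages, and it lies on chromosome 6 (GRCm39, 115337675 to 115468268, plus strand). It stood at 43.4, 39.6 and 38.4 CPM in the untreated control, 39.2, 35.7 and 32.0 with eGFP supernatant, 75.8, 68.3 and 71.3 with Ifnb1eGFP supernatant, and 74.5, 67.7 and 71.9 with rIFNβ. The 6 libraries with IFNβ were all above the 6 without it, by a log2 fold change of 1.01 ± 0.08 (SE, adjusted p = 6.08e-07) and 0.82 ± 0.08 (adjusted p = 3.08e-06), or 2.02-fold and 1.76-fold. Ppard, the widely expressed receptor, stood at 21.6, 18.3 and 22.5 CPM in the untreated control, 23.5, 21.9 and 18.9 with eGFP supernatant, 10.5, 18.9 and 14.3 with Ifnb1eGFP supernatant, and 15.4, 16.4 and 16.9 with rIFNβ. Its log2 fold change was -0.56 ± 0.17 with supernatant (adjusted p = 0.0155) and -0.36 ± 0.17 with rIFNβ (adjusted p = 0.0983), while the groups did not overlap in either comparison.

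Ppard was lowest in library 1 of the Ifnb1eGFP supernatant condition, the one with low GC-rich transcripts. With the trend of GC content and length removed its changes were -0.285 (adjusted p = 0.00569) and -0.259 (adjusted p = 0.00981), and its call with supernatant was lost without eGFP supernatant library 1 (adjusted p = 0.0572). Ppara, the receptor that governs oxidation genes in liver, had 2 counts in all 12 libraries together, 1 in untreated control library 1 and 1 in rIFNβ library 3, and was not tested. Per kilobase of transcript, Pparg made up 70.0 ± 2.58% of the summed level of the 3 receptors in the untreated control and 66.5 ± 0.422% with eGFP supernatant. Ifnb1eGFP supernatant gave a share of 85.5 ± 4.20% and rIFNβ one of 84.0 ± 1.09% (SD, n = 3), and Ppard made up nearly all of the rest.

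The PGC-1 coactivators were scarce. Ppargc1b, which encodes PGC-1β, stood at 3.08, 1.81 and 2.25 CPM in the untreated control, 2.83, 2.48 and 2.63 with eGFP supernatant, 0.986, 1.76 and 1.43 with Ifnb1eGFP supernatant, and 1.81, 2.05 and 1.69 with rIFNβ. Its log2 fold change was -0.92 ± 0.22 with supernatant (SE, adjusted p = 0.0044), without overlap, and -0.36 ± 0.22 with rIFNβ (adjusted p = 0.198), where the groups overlapped. The value with supernatant was -0.770 without library 1, -1.120 without library 2 and -0.665 with the trend of GC content and length removed. The gap between the comparisons was the widest among the members, but the interaction of -0.57 ± 0.32 (adjusted p = 0.926) did not pass the test. Ppargc1a, which encodes PGC-1α, had 2, 2 and 0 counts in the untreated control, 3, 3 and 1 with eGFP supernatant, 13, 5 and 5 with Ifnb1eGFP supernatant, and 6, 5 and 8 with rIFNβ. Scaled by library totals, its summed counts were 3.17 times as high with Ifnb1eGFP as with eGFP supernatant (23 against 7 counts, exact 95% binomial interval 1.32 to 8.76) and 4.39 times as high with rIFNβ as in the untreated control (19 against 4 counts, 1.46 to 17.7). These intervals cover counting error only. Of the 23 counts, 13 were in library 1 of the Ifnb1eGFP supernatant condition, whose deviation fell with GC content, and the transcript of Ppargc1a has 41.7% GC. The part of that trend in the first ratio was not tested.

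**Figure D3:**
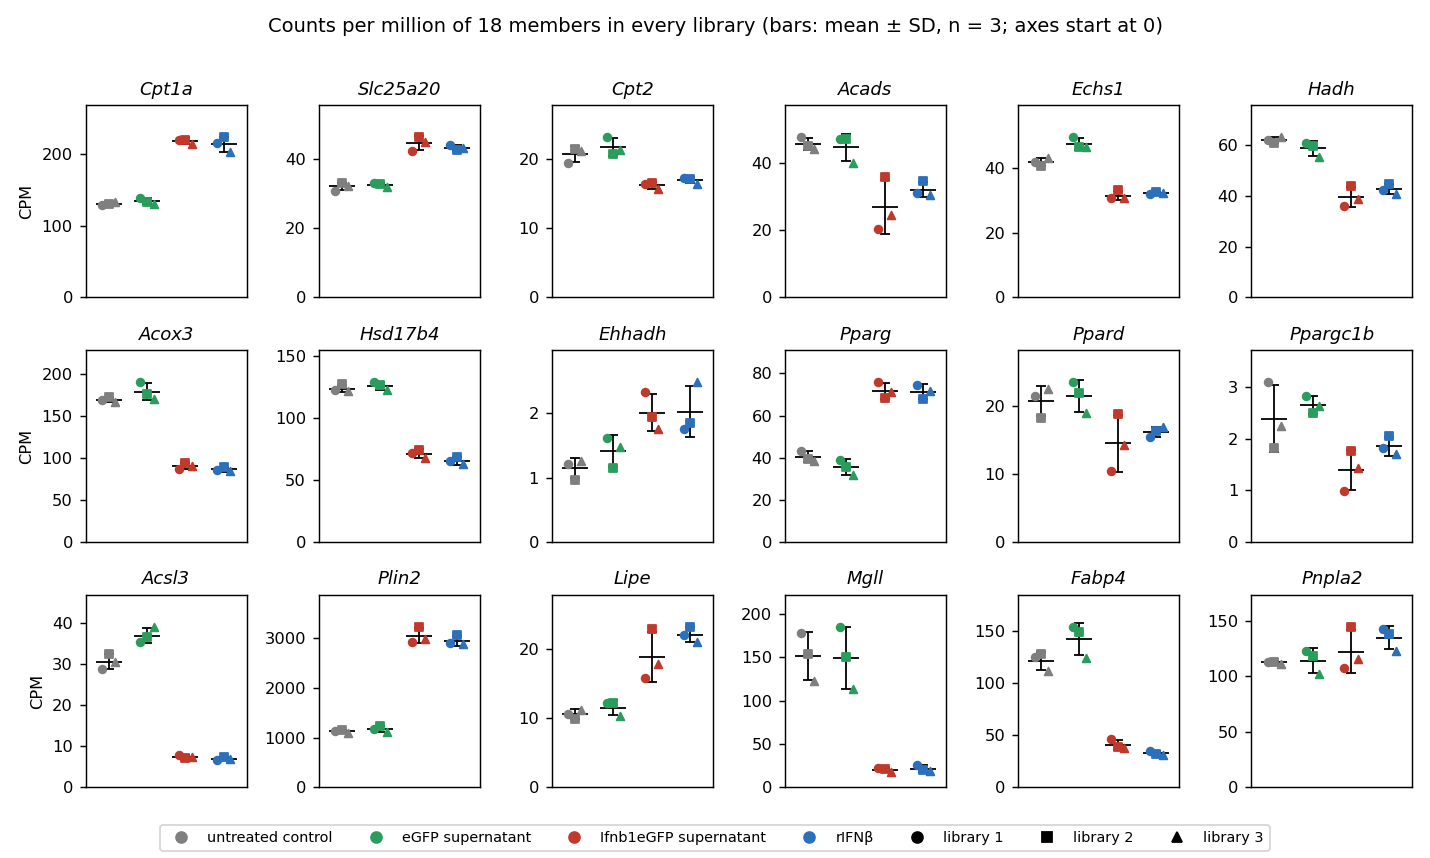
CPM of 18 members in every library (y axes start at 0), with colours for the 4 conditions, marker shapes for libraries 1 to 3 and bars for the mean ± SD (n = 3). Plin2 lies between 2888 and 3220 CPM in the libraries with IFNβ and between 1093 and 1229 without, Mgll is at most 26 CPM with IFNβ, and the red points of Acads, Ppard, Ppargc1b and Lipe are spread, library 1 being lowest.

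PPARs bind, as dimers with the retinoid X receptor, to a direct repeat of AGGTCA with 1 base between the copies. This pattern was searched on both strands of the RefSeq promoter windows, which reach from 250 bases before to 50 bases after each gene's start (GRCm38.p6) and which were matched for 31 of the 36 members. With at most 2 of its 12 letters different, the pattern occurred in 4 of 31 members (12.9%), against 3.86% of all 32851 windows. With at most 1 letter different it occurred in 0 members, against 0.554% of all windows. A member counted if any of its windows matched (36 windows for the 31 members), while all windows were counted singly. The shares of members and of windows are therefore in unlike units, which raises that of the members. The 4 members were Plin2 and Slc25a20, which were higher with IFNβ, and Echs1 and Etfa, which were lower, so the letters stood beside genes of both directions. They are shown with the matching letters in capitals, each on the strand of its gene, at chr4:86670232-86670309 (minus strand) for Plin2, chr7:140116452-140116544 (minus strand) for Echs1, chr9:55512268-55512360 (minus strand) for Etfa and chr9:108662142-108662154 (plus strand) for Slc25a20. In Plin2 and Etfa the repeat is on the opposite strand to the gene. The match of Slc25a20 lies after the start, so only its 13 bases are given.

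Plin2: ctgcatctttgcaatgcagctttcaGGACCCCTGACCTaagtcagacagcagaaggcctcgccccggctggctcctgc

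Slc25a20: AGGTGAAAGGTCG

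Echs1: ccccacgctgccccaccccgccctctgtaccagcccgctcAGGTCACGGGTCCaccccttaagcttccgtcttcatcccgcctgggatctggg

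Etfa: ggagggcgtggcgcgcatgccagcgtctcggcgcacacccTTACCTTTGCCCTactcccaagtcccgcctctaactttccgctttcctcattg

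The interferon-stimulated response element pattern GAAANNGAAA, searched on both strands, occurred in 0 of the 31 matched members and in 3.44% of all windows. The gamma-activated site pattern TTCNNNGAA occurred in Cpt2, Hadha, Hadhb and Lipe, with Hadha and Hadhb sharing 1 position, or in 12.9% of matched members against 8.3% of all windows. These shares too set genes against single windows. Matches describe letters in these windows and not binding.

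Among the acyl-CoA synthetases, Acsl3 changed most. Acsl3, the isozyme found on the endoplasmic reticulum and on nascent lipid droplets, lies on chromosome 1 (GRCm39, 78635537 to 78685461, plus strand). It stood at 28.8, 32.4 and 30.6 CPM in the untreated control, 35.3, 36.5 and 39 with eGFP supernatant, 7.89, 7.03 and 7.36 with Ifnb1eGFP supernatant, and 6.53, 7.38 and 6.95 with rIFNβ. The libraries with IFNβ were lower, with log2 fold changes of -2.31 ± 0.07 (SE, adjusted p = 7.48e-10) and -2.13 ± 0.07 (adjusted p = 1.02e-09), or 4.98-fold and 4.39-fold. The exons of Utp14b overlap those of Acsl3 on the same strand over 842 bases, and Utp14b had a log2 fold change of -2.26 with supernatant. How reads shared by Acsl3 and Utp14b were divided rests on the estimation by RSEM.

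Acsl4, which prefers arachidonic acid, stood at 156, 162 and 149.8 CPM in the untreated control, 155, 151 and 155 with eGFP supernatant, 145, 129 and 132 with Ifnb1eGFP supernatant, and 128, 133 and 123 with rIFNβ. It changed by -0.18 ± 0.05 (SE, adjusted p = 0.0111) and -0.29 ± 0.05 (adjusted p = 0.000593), and had -0.410 and -0.470 with the trend of GC content and length removed and, with supernatant, -0.289 without eGFP supernatant library 2 and Ifnb1eGFP supernatant library 1. Acsl5, an isozyme of mitochondria and the endoplasmic reticulum, stood at 152, 153 and 158 CPM in the untreated control, 152, 153 and 150.5 with eGFP supernatant, 171, 162 and 157 with Ifnb1eGFP supernatant, and 157, 158 and 158 with rIFNβ. Its change of 0.11 ± 0.04 with supernatant (adjusted p = 0.0379) was lost under 10 of 15 alternatives, and was 0.03 (adjusted p = 0.443) without Ifnb1eGFP supernatant library 1. The other libraries whose omission cost that call were eGFP supernatant library 1 (adjusted p = 0.0756), library 2 (0.0723) and library 3 (0.0987).

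Acsl1, the isozyme that serves oxidation in fat, heart and liver, ranged from 37.4 to 43.5 CPM over all 12 libraries, with log2 fold changes of -0.06 ± 0.05 in both comparisons (adjusted p = 0.322 and 0.377). Per kilobase of transcript, Acsl5 and Acsl4 were the most abundant isozymes in every condition. Acsl3 made up 10.1 ± 0.437% of the summed level of the 4 isozymes in the untreated control and 12.1 ± 0.565% with eGFP supernatant, but 2.72 ± 0.0821% with Ifnb1eGFP supernatant and 2.65 ± 0.139% with rIFNβ (SD, n = 3). Acsl5 rose in share from 44.6 ± 1.05% and 43.5 ± 0.650% to 52.5 ± 0.749% and 52.8 ± 0.612%. Its own level per kilobase moved only from 35.5 to 36.2 CPM per kilobase between untreated control and rIFNβ.

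**Figure D4:**
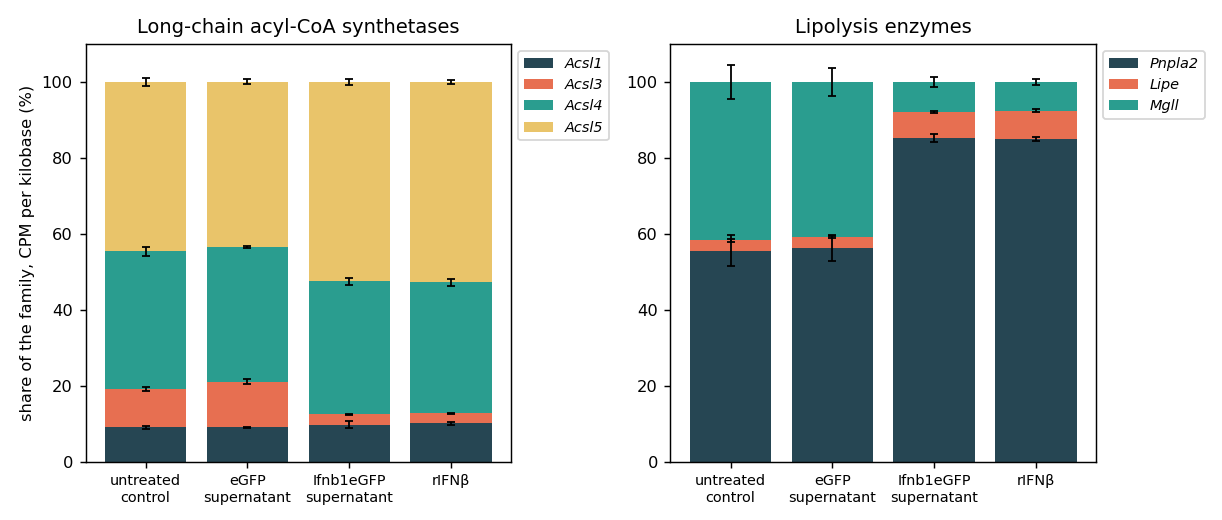
Share of each gene in the summed level of its family (y axis, %, CPM per kilobase of transcript) in the 4 conditions, for the acyl-CoA synthetases (left) and the lipolysis enzymes (right), with SD bars (n = 3) at the top of each segment. The segment of Acsl3 shrinks from 10.1% in the untreated control to 2.65% with rIFNβ, and that of Mgll from 41.7% to 7.6%.

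The lipid droplet genes held both the largest rise and the largest fall. Plin2, the perilipin that coats lipid droplets in macrophages and many other cells, lies on chromosome 4 (GRCm39, 86565912 to 86588459, minus strand). It stood at 1128, 1151 and 1093 CPM in the untreated control, 1164, 1229 and 1117 with eGFP supernatant, 2932, 3220 and 2990 with Ifnb1eGFP supernatant, and 2896, 3067 and 2888 with rIFNβ. The lowest library with IFNβ (2888 CPM) lay far above the highest without it (1229 CPM). The log2 fold change was 1.38 ± 0.05 (SE, adjusted p = 2.24e-09) with supernatant and 1.39 ± 0.05 (adjusted p = 1.9e-09) with rIFNβ, or 2.60-fold and 2.62-fold. Per kilobase, Plin2 was the most abundant member in every condition, at 548 CPM per kilobase in the untreated control and 1439 with rIFNβ.

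Lipolysis runs in 3 steps, carried out by Pnpla2 (adipose triglyceride lipase), Lipe (hormone-sensitive lipase) and Mgll (monoglyceride lipase). These 3 genes behaved differently from each other. Mgll, on chromosome 6 (GRCm39, 88652108 to 88805342, plus strand), stood at 179, 154 and 123 CPM in the untreated control, 185, 150.4 and 113 with eGFP supernatant, 21.7, 20.6 and 17.5 with Ifnb1eGFP supernatant, and 26, 20.2 and 18.3 with rIFNβ. The log2 fold change was -2.91 ± 0.20 (SE, adjusted p = 3.23e-07) and -2.82 ± 0.20 (adjusted p = 3.6e-07), or 7.51-fold and 7.07-fold lower, the largest fall among the members. In each of the 4 conditions the library numbered 1 had the highest Mgll level and the library numbered 3 the lowest, and the groups with and without IFNβ lay far apart. An antisense gene, Gm26588, shares 496 exon bases with Mgll and stood below 1 CPM in every condition.

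Lipe rose. It stood at 10.7, 9.89 and 11.2 CPM in the untreated control, 12.2, 12.2 and 10.3 with eGFP supernatant, 15.8, 22.9 and 17.8 with Ifnb1eGFP supernatant, and 22.1, 23.2 and 21.0 with rIFNβ. The groups did not overlap, with log2 fold changes of 0.71 ± 0.12 (SE, adjusted p = 0.000472) and 1.06 ± 0.12 (adjusted p = 2.09e-05). The value with supernatant was 0.778 without Ifnb1eGFP supernatant library 1, 0.545 without library 2 and 0.828 with the trend of GC content and length removed. Pnpla2 stood at 113, 113 and 111 CPM in the untreated control, 122, 118 and 102 with eGFP supernatant, 107, 144 and 115 with Ifnb1eGFP supernatant, and 143, 138 and 123 with rIFNβ. Its changes of 0.10 ± 0.10 (adjusted p = 0.446) and 0.26 ± 0.10 (adjusted p = 0.0542) did not pass the test. With the trend of GC content and length removed they were 0.30 (adjusted p = 0.00138) and 0.29 (adjusted p = 0.00179), and without Ifnb1eGFP supernatant library 2 the first turned to -0.035.

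Per kilobase, Mgll made up 41.7 ± 4.40% of the summed level of the 3 lipolysis genes in the untreated control and 40.8 ± 3.70% with eGFP supernatant, but 7.91 ± 1.41% with Ifnb1eGFP supernatant and 7.6 ± 0.908% with rIFNβ (SD, n = 3). The share of Pnpla2 went from 55.6 ± 4.07% and 56.3 ± 3.49% to 85.2 ± 1.08% and 85.0 ± 0.499%, and that of Lipe from 2.76 ± 0.363% and 3.00 ± 0.217% to 6.90 ± 0.340% and 7.38 ± 0.420%. For all 3 genes the shares of the libraries with and without IFNβ did not overlap.

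Fabp4, which encodes the fatty acid binding protein of adipocytes and macrophages that ferries lipid inside the cell, stood at 125, 128 and 111 CPM in the untreated control, 153, 148 and 124 with eGFP supernatant, 46.2, 38.1 and 37.5 with Ifnb1eGFP supernatant, and 35.1, 32.2 and 30.8 with rIFNβ. It fell, with log2 fold changes of -1.81 ± 0.10 (SE, adjusted p = 5.75e-08) and -1.89 ± 0.10 (adjusted p = 3.77e-08), or 3.50-fold and 3.71-fold. Fabp4 is a textbook PPARγ target, and its fall stood beside the rise of Pparg itself.

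Whether the supernatant added to IFNβ was asked by 3 further comparisons. Ifnb1eGFP supernatant against rIFNβ called 0 of 34 members, where 0.16% of all genes were called. An unadjusted p under 0.05 was found for 4 of the 34 members and for 1288 of the 15033 genes tested. The smallest adjusted p was that of Fabp4, 0.31 ± 0.10 (SE, adjusted p = 0.467). Without Ifnb1eGFP supernatant library 2, 4 members were lower in this comparison. Their names and the share of all genes that were lower without that library are not given here. The eGFP supernatant against untreated control called 0 members, where 0.299% of all genes were called. Here 5 of the 34 members and 1203 of the 15033 genes had an unadjusted p under 0.05. Acsl3 (0.27 ± 0.07, adjusted p = 0.165) and Echs1 (0.18 ± 0.05, adjusted p = 0.209) came closest, and both passed with DESeq2 (adjusted p = 0.0482 and 0.0394). The interaction asks whether IFNβ acted differently with supernatant than as recombinant protein. It called 0 members and 0% of all genes. With an unadjusted p under 0.05 there were 661 of the 15033 genes and 1 member. That member was Echs1, at -0.21 ± 0.07 (adjusted p = 0.926). The untreated control and eGFP supernatant libraries enter the IFNβ comparisons as well as these, so the comparisons share samples.

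**Figure D5:**
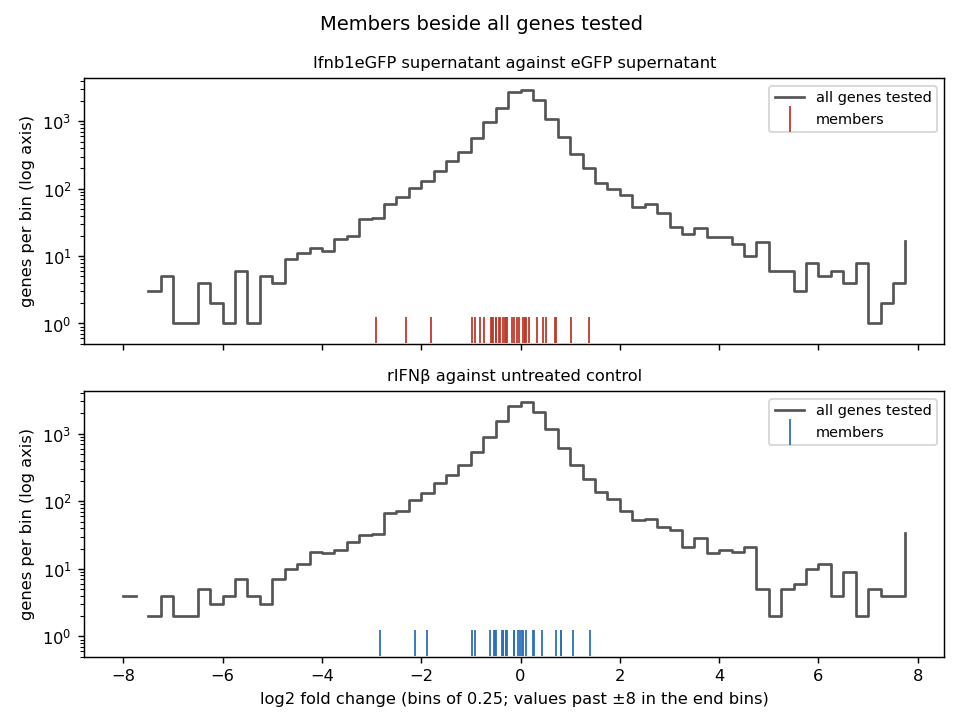
Number of tested genes (y axis, log scale) by log2 fold change (x axis, bins of 0.25) in the 2 IFNβ comparisons, with the 34 members as coloured ticks. The ticks lie mostly left of 0, with medians of -0.29 and -0.28, and none of them reaches past -2.91 or 1.39, while other genes extend to the ends of the axis.

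Around the members, 97 further genes of the same pathways were counted, of which 83 were tested. With Ifnb1eGFP supernatant 25 were higher (30.1%) and 32 lower (38.6%), and with rIFNβ 27 (32.5%) and 30 (36.1%), where 30.1% and 30.7% of all genes were higher and 25% and 24.6% lower. Of 15 other mitochondrial genes, 9 were lower (60%) and 1 higher (6.67%) with supernatant, and 6 (40%) and 1 with rIFNβ. Ivd, which oxidizes isovaleryl-CoA from leucine, fell, with log2 fold changes of -1.06 ± 0.06 (SE, adjusted p = 5.59e-08) and -0.88 ± 0.06 (adjusted p = 2.3e-07). Crat, the carnitine acetyltransferase, fell, with log2 fold changes of -0.62 ± 0.07 (adjusted p = 1.03e-05) and -0.60 ± 0.07 (adjusted p = 1.4e-05). Acacb, whose product malonyl-CoA blocks the transferase encoded by Cpt1a, rose by 2.01 ± 0.37 (adjusted p = 0.000658) and 2.48 ± 0.37 (adjusted p = 0.000144) from a mean of 0.357 CPM in the untreated control.

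Other peroxisomal genes were split, with 5 of 17 higher (29.4%) and 7 lower (41.2%) with supernatant and 6 (35.3%) and 7 with rIFNβ. Abcd2, an importer of very long chains, fell, with log2 fold changes of -0.73 ± 0.15 and -0.72 ± 0.15 (SE, adjusted p = 0.00158 and 0.00187). Phyh, which starts the alpha-oxidation of phytanic acid, rose by 0.88 ± 0.06 and 0.84 ± 0.06 (adjusted p = 4.49e-07 and 6.08e-07). Of 17 nuclear receptor partners and coregulators, 9 (52.9%) were higher with supernatant and 10 (58.8%) with rIFNβ, against 30.1% and 30.7% of all genes, and 0 were lower, against 25% and 24.6%. The steroid receptor coactivators Ncoa1, Ncoa2 and Ncoa3 rose by 0.60 ± 0.06, 0.64 ± 0.07 and 0.64 ± 0.04 with supernatant, and Sirt3, the mitochondrial deacetylase, by 0.57 ± 0.08 with rIFNβ (adjusted p = 6.51e-05).

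PPAR targets outside oxidation did not move as 1 group, with 4 of 12 higher (33.3%) and 6 lower (50%) with supernatant and 4 and 5 (41.7%) with rIFNβ. Angptl4, an inhibitor of lipoprotein lipase, rose by a log2 fold change of 1.98 ± 0.11 (SE, adjusted p = 3.48e-08) and 1.77 ± 0.11 (adjusted p = 8.51e-08). Pdk4, the kinase that shuts off pyruvate dehydrogenase, was called higher in both (adjusted p = 0.0101 and 0.00273) on few reads, at most 2 counts in any untreated library and 3 with eGFP supernatant against up to 15 and 17 with IFNβ. Fabp3, a fatty acid binding protein related to Fabp4, fell, with log2 fold changes of -1.61 ± 0.18 (adjusted p = 1.27e-05) and -2 ± 0.18 (adjusted p = 2.24e-06). Ucp3, a mitochondrial carrier at 0.265 CPM or less in every condition, fell, with a log2 fold change of -1.71 ± 0.62 with supernatant (adjusted p = 0.0362) and -1.65 ± 0.67 with rIFNβ, which did not pass (adjusted p = 0.057).

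Among other lipid droplet and lipase genes, 5 of 12 were higher (41.7%) and 4 lower (33.3%) with supernatant and 4 and 5 with rIFNβ. Abhd5, the coactivator of the lipase encoded by Pnpla2, fell, with log2 fold changes of -0.83 ± 0.05 (SE, adjusted p = 6.48e-08) and -0.92 ± 0.05 (adjusted p = 2.42e-08). G0s2, the inhibitor of the same lipase, rose by 1.45 ± 0.43 (adjusted p = 0.0136) and 1.85 ± 0.47 (adjusted p = 0.00557), at a mean of 0.392 CPM or less in every condition. Cideb, a protein of lipid droplet and lipoprotein assembly, rose by 1.40 ± 0.49 (adjusted p = 0.0315) and 2.04 ± 0.53 (adjusted p = 0.00659), also from below 1 CPM. Pnpla2 itself did not pass the test, as given above.

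Of 10 genes of fatty acid uptake and activation, 1 was higher and 6 lower (60%) with supernatant and 2 and 7 (70%) with rIFNβ, where 25% and 24.6% of all genes were lower. Dbi, the acyl-CoA binding protein that buffers the product of the synthetases, fell, with log2 fold changes of -1.92 ± 0.04 (SE, adjusted p = 1.33e-10) and -2.08 ± 0.04 (adjusted p = 7.5e-11). Acss2, the cytosolic acetyl-CoA synthetase, fell, with a log2 fold change of -0.89 ± 0.12 with supernatant (adjusted p = 8.05e-05), and its mitochondrial relative Acss1 with -0.71 ± 0.12 with rIFNβ (adjusted p = 0.000478). Slc27a3, of the fatty acid transport protein family, fell, with log2 fold changes of -0.83 ± 0.26 and -0.74 ± 0.25 (adjusted p = 0.0189 and 0.0308). Its mean was 0.519 CPM or less in every condition.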

How the data were processed

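Total RNA of M2-like BMDM was sequenced as TruSeq Stranded Total RNA libraries, 3 for each of 4 conditions. Per the labels, the authors estimated expression with RSEM 1.3.3 and deposited its expected counts for each Ensembl gene, neither normalized nor filtered. The methods join 2 build names, GRCm39 and mm10. Gene positions given here are those of GENCODE M39 on GRCm39, and promoter sequences are RefSeq's on GRCm38.p6. Each of the 12 columns was matched to its sample by its description, with 0 columns left over. Libraries of a condition differed beyond counting error, so none was counted as a duplicate.

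Expected counts were rounded (12.0% of values were not whole). The 15033 of 56748 genes that passed filterByExpr of edgeR 4.0.16 (R 4.3.3) were scaled by TMM factors and fitted in 1 quasi-likelihood model over all 12 libraries. A gene was called at a Benjamini-Hochberg adjusted p of at most 0.05 over all genes tested. SE is the log2 fold change divided by the square root of F. CPM used TMM-scaled totals, and levels per kilobase the length of the Ensembl canonical transcript. With 3 libraries per condition, outlying libraries were not tested.

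Values in every library are given for up to 3 called members of each role with the largest change with supernatant, for all PPAR regulators and for members past the study's thresholds; Lipe, Pnpla2 and Acaa1a were added after their values were seen. In each list of other pathway genes, the 3 called genes with the largest change in a comparison are named, except 1 that is not reported here. The members and lists were chosen with earlier results of these data known. Alternatives were RLE factors, library totals, DESeq2 1.42.0, no filter on low counts, the replicate number as a block, unrounded counts, only the compared conditions, and each library left out. Removing the trend of GC content and length (splines, 5 degrees of freedom), and leaving out eGFP supernatant library 2 with Ifnb1eGFP supernatant library 1, were added after seeing the data. The match to GENCODE M39 covered 56017 of the 56748 genes.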

Additional observations from a re-analysis of the deposited data

How the results depend on the processing

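For the supernatant comparison, the counts of members higher and lower stayed within 1.5 times 9 and 20 under every alternative run, with 6 to 8 higher and 16 to 20 lower. For rIFNβ against untreated control they stayed at 7 to 8 higher and 14 to 21 lower. The median log2 fold change of the members with rIFNβ was -0.329 with RLE factors, -0.324 with DESeq2, -0.327 without eGFP supernatant library 2 and Ifnb1eGFP supernatant library 1, and -0.293 to -0.223 when 1 library was left out. The median of eGFP supernatant against untreated control was 0.01, and -0.016 to 0.042 when 1 library was left out. In Ifnb1eGFP supernatant against rIFNβ, 0 to 4 members were lower when 1 library was left out, the 4 arising without Ifnb1eGFP supernatant library 2, and DESeq2 called 2 members higher with eGFP supernatant than in the untreated control, Acsl3 and Echs1. The causes were not tested.

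With the trend of GC content and length removed, Decr1 had -0.086 with supernatant and -0.157 (adjusted p = 0.0335) with rIFNβ, Acadvl -0.002, Acsl1 0.012 and Acsl5 -0.017 with rIFNβ. Acsl5 had -0.018 with RLE factors, -0.005 with only the compared conditions, -0.016 without the same 2 libraries and -0.014 with DESeq2. With 1 library left out, Eci2 ranged from -0.060 to 0.023 with rIFNβ (0.002 and 0.023 without untreated control library 2 and rIFNβ library 1), and Pnpla2 from -0.035 (without Ifnb1eGFP supernatant library 2) to 0.154 with supernatant. Some called falls were over 1.5 times as large with the GC and length trend removed. Acadl had -0.486 and -0.468, Etfa -0.456 and -0.534, Etfdh -0.284 and -0.283, and Hadhb -0.677 with supernatant. Values with rIFNβ moved too, although that comparison holds no library of the Ifnb1eGFP supernatant condition. The removal also takes out trends between conditions, and whether what it took out was technical was not tested. Over all members and alternatives of the 2 IFNβ comparisons, 462 of 510 and 467 of 510 values kept direction and call.

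Libraries with the same replicate number deviated together in 13 of 18 pairs at a correlation over 0.1 (mean 0.148, from 0.0582 to 0.252). Pairs with different numbers had a mean of -0.0742. Deviations from a condition's mean sum to 0 over its libraries, so this second mean largely follows from the first. Of the 12 libraries, 11 correlated best with their own number everywhere. Neither labels nor methods say what the number stands for. With the replicate number as a block, 8 members were higher and 20 lower with supernatant, and 8 and 17 with rIFNβ.

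Depth limits Ehhadh, Ppargc1b, Ppargc1a and Ppara, whose lowest libraries held 33, 39, 0 and 0 counts. Calls that rest on 1 library are named beside their genes.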
